A study of Mus musculus with 14 samples.

Results

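The dystrophin glycoprotein complex was described here through 8 of its genes in sorted mouse muscle precursor cells of 3 ages. The genes were Dag1, Dmd, Utrn, Sgca, Sgcb, Sgcd, Sntb1 and Dtna, and the members were all 29 probe sets that the platform annotation assigns to 1 of these genes alone, of 45101 probe sets on the array (18194 genes). A probe set is a group of short probes for one transcript, and its value is the log2 of the deposited intensity. Dtna had 7 probe sets, Sntb1 6, Dag1 and Dmd 4 each, Utrn and Sgcb 3 each, and Sgca and Sgcd 1 each. RNA came from C57BL/6 mice aged 2 months (young, 5 arrays), 12 months (middle-aged, 4 arrays) and 24 months (aged, 5 arrays), and no array carried a treatment or mutant allele in its labels. The cells were freed from muscle fibres by digestion and sorted as CD45-Ter119-Sca-1-CD29+Cxcr4+, a combination used to enrich muscle stem cells (satellite cells). No label states if an array held a single animal or a pool, so the p-values measure only the spread between these samples, which may be technical.

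The complex spans the muscle cell membrane and ties the actin cytoskeleton to the basal lamina. Dystroglycan, encoded by Dag1, is cut into an outer subunit whose sugar chains bind laminin and an inner subunit that crosses the membrane and holds dystrophin (Dmd) or its relative utrophin (Utrn). The sarcoglycans (Sgca, Sgcb, Sgcd) brace dystroglycan from the side, and dystrobrevin (Dtna) and the syntrophins (Sntb1) bind dystrophin inside the cell and carry signalling proteins. Loss of dystrophin or of a sarcoglycan causes muscular dystrophy, and in satellite cells dystrophin is also known for its part in cell polarity at division.

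Promoters of 3 of these genes are shown to set the single member called lower with age beside a pair of muscle genes of the complex. Dag1 is that member and is active in many tissues, Sgca encodes a sarcoglycan largely restricted to striated muscle, and the Dmd window lies at a start of its upstream transcripts. Each window holds the 250 bases before a transcript start in RefSeq (GRCm38.p6), read 5′ to 3′ on the gene's strand, with capitals for the E-box CANNTG, bound by MyoD and its relatives, and for the GC box GGGCGG, bound by Sp1, on either strand. The windows are chr9:108263959-108264208 (minus strand) for Dag1, chr11:94976328-94976577 (minus strand) for Sgca and chrX:82948620-82948869 (plus strand) for Dmd.
Dag1: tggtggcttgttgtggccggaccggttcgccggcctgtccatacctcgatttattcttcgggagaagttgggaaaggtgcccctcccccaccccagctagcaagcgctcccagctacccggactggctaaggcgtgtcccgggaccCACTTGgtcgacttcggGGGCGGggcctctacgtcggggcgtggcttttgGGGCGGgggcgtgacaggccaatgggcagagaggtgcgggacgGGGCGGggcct
Sgca: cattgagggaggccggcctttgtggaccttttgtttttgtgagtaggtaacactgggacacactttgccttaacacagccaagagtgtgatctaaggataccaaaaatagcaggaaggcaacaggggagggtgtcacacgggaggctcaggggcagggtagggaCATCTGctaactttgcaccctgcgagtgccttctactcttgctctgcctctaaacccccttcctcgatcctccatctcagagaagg
Dmd: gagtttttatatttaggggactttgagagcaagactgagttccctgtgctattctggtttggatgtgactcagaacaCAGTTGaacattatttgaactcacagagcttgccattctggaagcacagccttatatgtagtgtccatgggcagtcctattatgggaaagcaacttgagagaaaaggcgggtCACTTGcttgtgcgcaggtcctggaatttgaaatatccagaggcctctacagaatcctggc
The Dag1 window held 3 GC boxes and 1 E-box, 21 CpG dinucleotides and 67.6% G and C. That of Sgca held 1 E-box, no GC box and 4 CpG at 52.8% G and C, and that of Dmd 2 E-boxes and no GC box at 45.2%. Of 32851 mouse promoter windows of the same length, 66.2% held a CANNTG and 32.7% a GGGCGG on either strand, so neither motif sets these genes apart, and a match shows letters and not a bound site. A start inside the Dmd gene, at which a shorter transcript begins, had a window (chrX:85048045-85048294) with 3 GC boxes and no E-box. A promoter entry was found for 6 of the 8 genes.

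Of the 45101 probe sets, 34945 named 1 gene and 23887 of these were bright enough to test, lying above the 40th percentile of their array (log2 3.79 to 3.96) on at least 4 arrays of any age. Markers of satellite cells were bright at every age, with a mean log2 level over 12 genes between 9.24 and 10.05 on each array. Fibro-adipogenic markers had means over 12 genes of 8.88 in young, 9.30 in middle-aged and 9.28 in aged cells. The satellite cell marker means were 9.97, 9.62 and 9.44 in the same order. On middle-aged 3, aged 2 and aged 3 the fibro-adipogenic mean was the higher of the pair, and on every other array it was the lower. Ptprc, which encodes the excluded CD45, was below the filter, while 7 of 10 genes on the leukocyte list passed it. Within ages the arrays lay in 2 sets along their first principal component, which held 31.3% of the variance left after age was removed. Set 2 held 6 arrays (aged 3, 4 and 5, young 2 and 5, and the single middle-aged array 1) and set 1 the other 8. Both were found in the data and match no label. In bulk RNA, fewer cells of a type and less RNA per cell cannot be told apart.

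Dag1 was the single member called lower with age, on 1 of its 4 probe sets, at about 2.00-fold below the young level in aged cells. Dmd, Utrn, Sgca, Sgcb, Sntb1 and Dtna gave no call between any pair of ages in the same fit, and Sgcd was too dim to test. The lack of a call does not show that a level stayed the same. Of the 29 probe sets, 18 were bright enough to test: all 4 of Dag1, 3 each of Dmd, Utrn, Sgcb and Dtna, and 1 each of Sgca and Sntb1. In a linear model over all 14 arrays (limma, with Benjamini-Hochberg adjustment over the 23887 probe sets and a call at adjusted p under 0.05), 1 of the 18 was called in aged against young cells, and it was lower. Over all probe sets 3.10% were called in this comparison and 0.888% were called lower. None of the 18 was called in middle-aged against young cells, where 1.86% of all were, or in aged against middle-aged cells, where 0.00% were. At an unadjusted p under 0.05, 6 of the 18 differed between aged and young (5 lower, 1 higher; 15.2% of all probe sets), 6 between middle-aged and young (5 lower, 1 higher; 14.7%) and 1 between aged and middle-aged (8.74%). The aged mean lay below the young mean for 16 of the 18, and for 13848 of all 23887, with a median log2 change of -0.21 for the members and -0.05 for all. Probe sets of one gene read the same RNA, so these counts are not counts of independent genes.

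**Figure D1:**
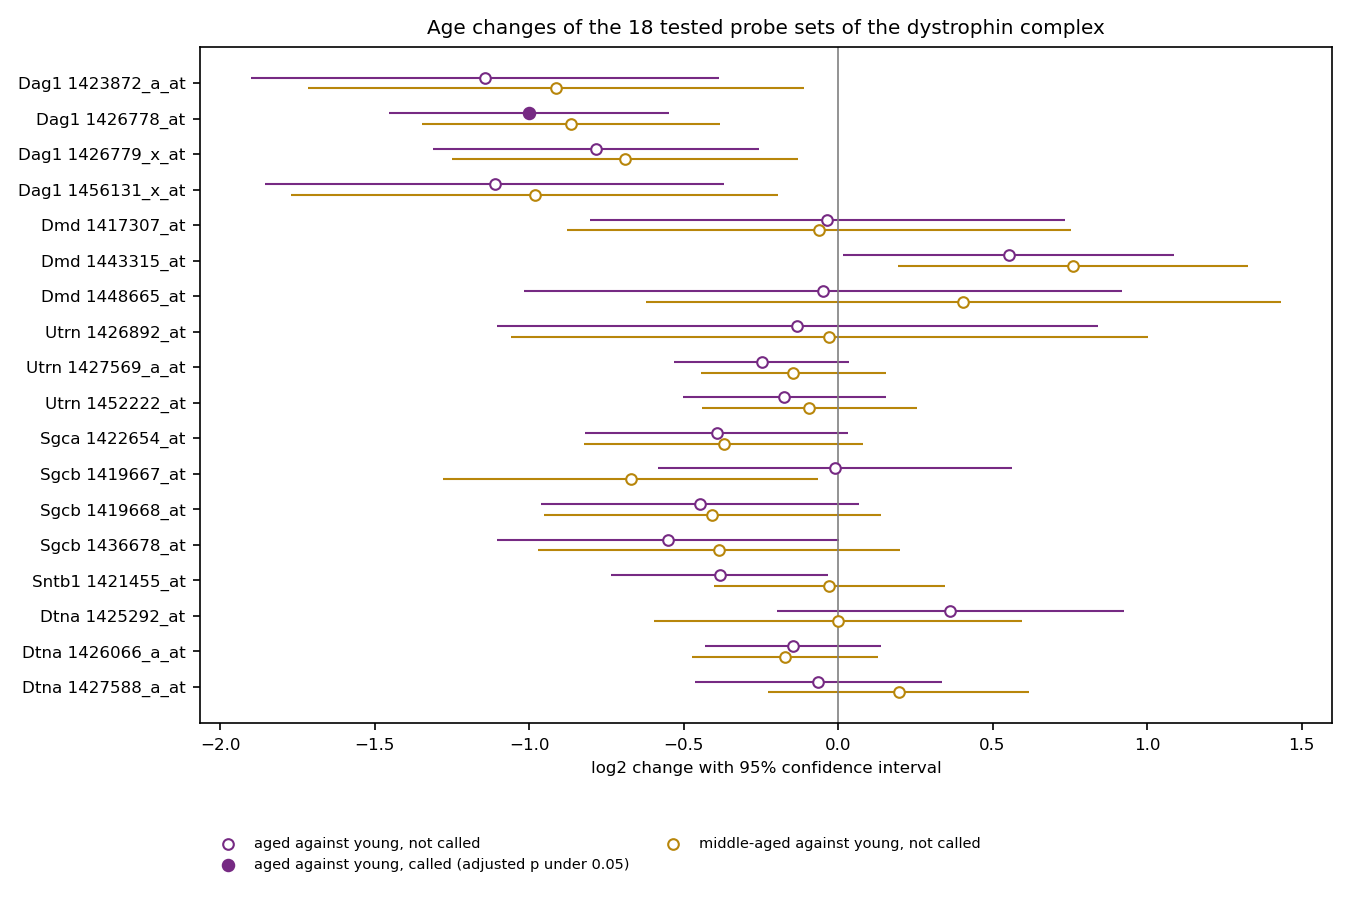
Log2 change of each of the 18 tested probe sets, with its 95% confidence interval from the linear model, for aged minus young (purple) and middle-aged minus young (ochre); a filled point marks an adjusted p under 0.05. The 4 Dag1 probe sets lie between -1.14 and -0.78 in aged against young cells, 1 of them filled, and most other intervals cross 0.

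Dystroglycan is the part of the complex that meets the matrix. On the Dag1 probe set 1426778_at, the log2 levels were 12.16, 11.43, 12.34, 12.68 and 11.94 on young arrays 1 to 5. They were 11.02, 11.19, 11.22 and 11.55 on middle-aged arrays 1 to 4, and 10.82, 11.41, 11.06, 10.85 and 11.42 on aged arrays 1 to 5. Every aged array lay below every young one, although the lowest young array (young 2, 11.43) stood only just above the highest aged one (aged 5, 11.42). Over all probe sets the aged and young groups were apart in this way for 4.63%, and for 1.81% with the aged lower. The group means were 12.11 ± 0.47 (SD, n = 5), 11.25 ± 0.22 (n = 4) and 11.11 ± 0.29 (n = 5). From young to aged cells Dag1 fell by 1.00 on the log2 scale (SE 0.21; 95% confidence interval of the change -1.45 to -0.55; limma adjusted p = 0.0163). The F test over the 3 ages was also passed (adjusted p = 0.0290), by 1 of the 18 member probe sets and by 2.81% of all. No member probe set passed it when young 1, 3, 4 or 5 was left out.

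Most of the difference in Dag1 already stood at 12 months. The change from young to middle-aged cells on 1426778_at was -0.87 ± 0.23 and missed the threshold (limma adjusted p = 0.0657), and the groups overlapped, since young 2 lay below middle-aged 4. From middle-aged to aged cells it was -0.13 ± 0.23, with an interval of -0.62 to 0.35. The late step minus the early step was 0.73 ± 0.40 (adjusted p = 0.529), so a difference between the steps was not shown. Ordered by level, young came first, and middle-aged and aged did not differ beyond their spread.

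The other 3 Dag1 probe sets gave changes of like size with wider spread. On 1423872_a_at the young arrays read 10.46, 8.36, 10.05, 10.19 and 9.15, the middle-aged 7.85, 9.21, 8.68 and 9.19, and the aged 8.48, 8.84, 8.48, 8.31 and 8.39. Young 1, 3 and 4 were the 3 highest arrays on all 4 probe sets, and middle-aged 1 was the lowest on the 3 dimmer ones. The aged minus young change was -1.14 ± 0.36 on 1423872_a_at (adjusted p = 0.108), -0.78 ± 0.25 on 1426779_x_at (0.114) and -1.11 ± 0.35 on 1456131_x_at (0.111). The letter x in the last pair of names marks probes that may also bind other transcripts.

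**Figure D2:**
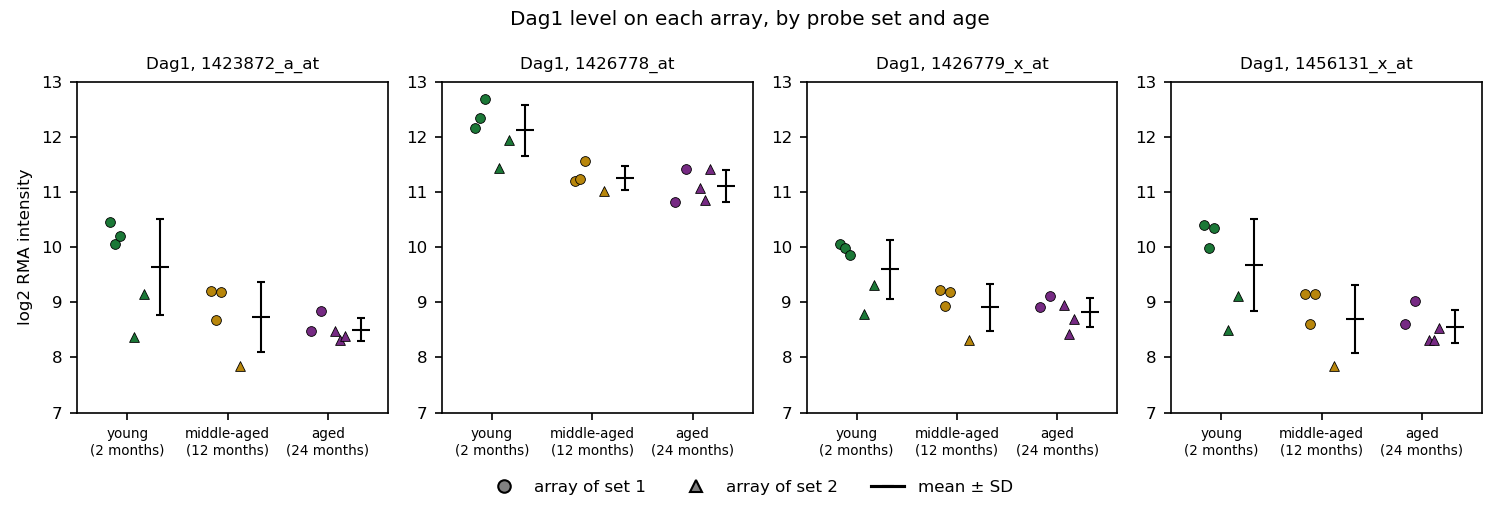
Log2 RMA intensity (vertical axis) of the 4 Dag1 probe sets on each array, by age; circles are arrays of set 1, triangles arrays of set 2, and the bars give the mean ± SD of each age. On 1426778_at all 5 aged arrays (10.82 to 11.42) lie below all 5 young ones (11.43 to 12.68), and the 2 young triangles are the lowest young points in every panel.

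The spread of Dag1 among young arrays followed the array sets. On 1423872_a_at the young mean was 10.24 in set 1 (3 arrays) and 8.76 in set 2 (2 arrays), and on 1426778_at 12.40 and 11.69. At equal age, set 2 lay below set 1 by 0.34 to 0.99 on the 4 probe sets, as differences of -0.34 and -0.99 at the extremes. Within set 1 the aged minus young change on 1426778_at was -1.28 ± 0.24 (limma adjusted p = 0.0207), and within set 2 it was -0.58 ± 0.26 (adjusted p = 0.528, with 12 of all probe sets called). With the array set as a term in the model the change was -0.93 ± 0.19 (adjusted p = 0.0111) and all 4 Dag1 probe sets were called in both comparisons with young cells. The sets were taken from the same values, so neither the term nor the fits within a set are independent support.

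A measure of RNA quality was also compared between the ages. The difference between the 3′ and 5′ control probe sets of Gapdh and Actb, which grows as RNA degrades or as copying falls short, was 4.30 ± 0.54 log2 units (SD, n = 5) in young, 3.85 ± 0.25 (n = 4) in middle-aged and 3.54 ± 0.51 (n = 5) in aged arrays. Aged minus young was -0.77 (exact two-sided permutation test, p = 0.0714). With this measure as a covariate the Dag1 change was -0.72 ± 0.25 and no longer called (adjusted p = 0.142). Without young 3 the change was -0.94 and the call was also lost (adjusted p = 0.0534), while without young 2 it was called on all 4 Dag1 probe sets, and 1426778_at was called in middle-aged against young cells as well (adjusted p = 0.0217).

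Markers of several cell types differed between the ages too. The mean log2 level over 17 tested markers of mature myofibres ran from 6.18 to 7.16 on young, 6.75 to 7.71 on middle-aged and 7.65 to 8.85 on aged arrays, and 12 of the 17 rose in aged against young cells. Of 10 tenocyte markers 9 rose, with a mean level of 6.05 to 7.18 on young, 8.48 to 10.07 on middle-aged and 8.57 to 9.67 on aged arrays, and 9 had also risen in middle-aged against young cells. Of 12 satellite cell markers 3 fell (Calcr, Chrdl2 and Fgfr4), and the list mean ran from 9.75 to 10.05 on young, 9.31 to 9.86 on middle-aged and 9.24 to 9.69 on aged arrays. Of 7 tested leukocyte markers Cd14 rose (1.33 ± 0.25, limma adjusted p = 0.00846) and Lyz2 differed by 1.61 ± 0.47 (0.0824), while Ptprc and Itgam were below the filter. Of 8 tested endothelial markers none was called, and Pecam1 and Emcn were below the filter. At an unadjusted limma p under 0.05, 2 of the 8 were higher in aged cells and 1 was lower (16.3% of all genes differed in either direction). Vwf differed by 1.05 ± 0.44 and Esam by 0.92 ± 0.34. The part of these cell types in the Dag1 result was not tested.

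**Figure D3:**
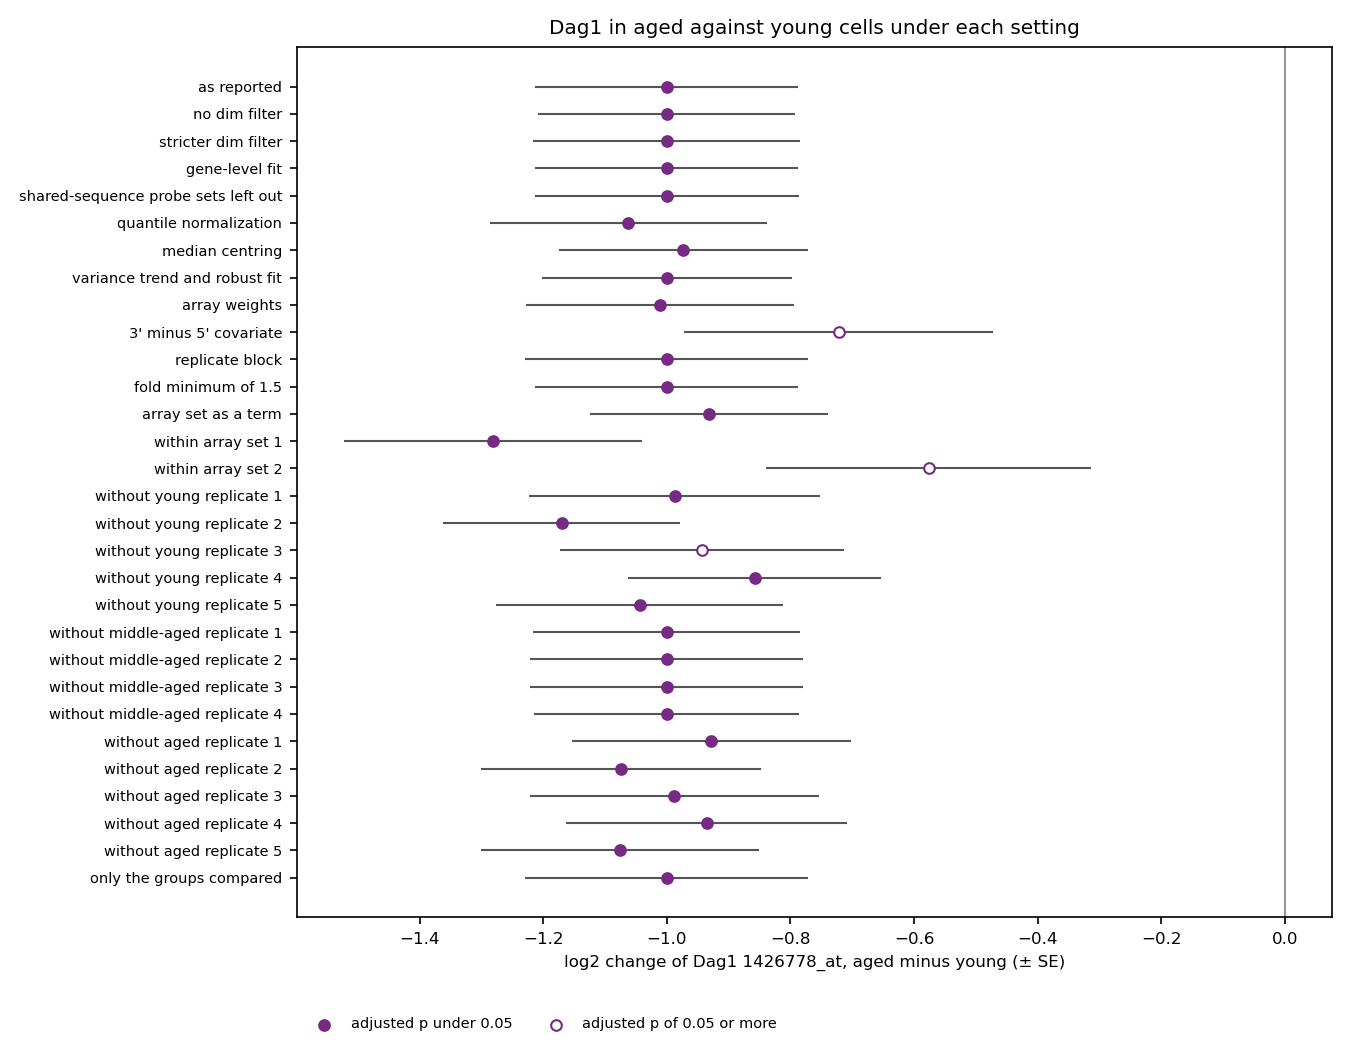
Log2 change of Dag1 1426778_at in aged minus young cells (point) with its standard error (line), as reported and under each other setting of the analysis; filled points have an adjusted p under 0.05. All values lie below 0, from -1.28 within array set 1 to -0.58 within array set 2, and the 3 open points are the 3′ minus 5′ covariate, array set 2 alone and the fit without young replicate 3.

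Dystrophin is the rod-shaped protein that links dystroglycan to actin. Its probe set 1448665_at read 7.83, 8.71, 7.40, 6.99 and 9.23 on young arrays 1 to 5, 9.52, 7.87, 7.61 and 8.76 on middle-aged arrays 1 to 4, and 6.96, 7.71, 8.24, 8.37 and 8.65 on aged arrays 1 to 5. The ages overlapped widely, and the aged minus young change was -0.05 ± 0.45 with an interval from -1.02 to 0.92, which is wide enough to hold a change of the size seen in Dag1. On 1417307_at the change was -0.04 ± 0.36. Both probe sets differed between the array sets in the direction opposite to Dag1: at equal age, set 2 stood above set 1 by 1.16 on 1417307_at and by 1.36 on 1448665_at. The sets were taken from these same values, so a difference between them is partly built in.

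The dimmer Dmd probe set 1443315_at had higher means in both older groups. It read 4.52, 4.09, 4.08, 4.80 and 4.49 on young arrays, 5.04, 5.26, 4.55 and 5.77 on middle-aged arrays and 5.11, 5.09, 4.21, 5.47 and 4.85 on aged arrays. Both older groups overlapped the young one. The change was 0.55 ± 0.25 in aged (adjusted p = 0.307) and 0.76 ± 0.27 in middle-aged cells (adjusted p = 0.182), and with arrays weighted by their quality the middle-aged change of 0.88 was called (adjusted p = 0.0465). The fourth Dmd probe set, 1430320_at, lay between 2.99 and 3.82 and under the brightness filter on all 14 arrays. The 3 tested probe sets did not give one answer for Dmd, and which dystrophin transcripts each reads is not known from the files.

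Utrophin is the relative of dystrophin that can take its place under the membrane. On 1452222_at its level was 9.29, 9.37, 9.43, 9.48 and 9.51 on young arrays, 9.81, 9.10, 9.16 and 9.21 on middle-aged arrays and 9.24, 9.13, 9.41, 9.47 and 8.96 on aged arrays. The groups overlapped, with middle-aged 1 the highest array of all. The aged minus young change was -0.17 ± 0.15, with an interval from -0.50 to 0.15 that leaves out a 2-fold change in either direction. It was -0.25 ± 0.13 on 1427569_a_at (adjusted p = 0.411) and -0.13 ± 0.46 on 1426892_at, which ranged from 6.22 to 7.87 on young, 5.98 to 8.52 on middle-aged and 6.12 to 7.73 on aged arrays and therefore gave little precision.

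The tested sarcoglycans, Sgca and Sgcb, gave no call. Sgca, α-sarcoglycan, read 8.55, 7.97, 8.80, 8.41 and 8.37 on young arrays, 7.81, 8.39, 8.25 and 7.75 on middle-aged arrays and 7.44, 8.19, 8.17, 8.29 and 8.05 on aged arrays. Young 1 and 3 were the highest and aged 1 the lowest, with overlap between all ages. The change was -0.39 ± 0.20 in aged (adjusted p = 0.378) and -0.37 ± 0.21 in middle-aged against young cells (0.462). Sgca is a gene of muscle cells, and on the same aged arrays the mean of the mature myofibre markers was above the young mean, at 8.29 ± 0.45 against 6.76 ± 0.43 (SD, n = 5 each). Any part of mature myofibres in the Sgca levels was not tested.

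Sgcb, β-sarcoglycan, had its lowest mean in middle age on 1419667_at. Young arrays read 8.11, 7.92, 8.28, 8.13 and 8.31, middle-aged arrays 8.28, 7.74, 6.79 and 7.12, and aged arrays 7.54, 7.90, 8.83, 8.06 and 8.38. Of the middle-aged arrays, 3 lay below every young one and middle-aged 1 lay among them. The change was -0.67 ± 0.29 from young to middle-aged (adjusted p = 0.282) and 0.66 ± 0.29 from middle-aged to aged (0.535). The late minus the early step was 1.33 ± 0.50 (unadjusted p = 0.0181, adjusted p = 0.362), and 10.9% of all probe sets reached an unadjusted p under 0.05 in that test while 0.00% were called.

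The other 2 Sgcb probe sets had no higher mean in aged than in middle-aged cells. In aged against young cells they changed by -0.45 ± 0.24 (1419668_at, adjusted p = 0.417) and -0.55 ± 0.26 (1436678_at, adjusted p = 0.332), and in aged against middle-aged cells by -0.04 ± 0.26 and -0.17 ± 0.28. Within array set 1, with 3 young and 2 aged arrays, a change of -0.89 ± 0.21 on 1419668_at was called in aged against young cells (limma adjusted p = 0.0463). That set was taken from the same values, so this call is no independent support. Within set 2 the means of 1419668_at were 7.50 in young and 7.30 in aged cells, and the changes of 1436678_at and 1419667_at were 0.0086 and 0.31. Sgcd, δ-sarcoglycan, had a single probe set, which read 3.00 to 3.65 and lay below the 40th percentile on all 14 arrays. Its level was thus not measured here at any age.

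**Figure D4:**
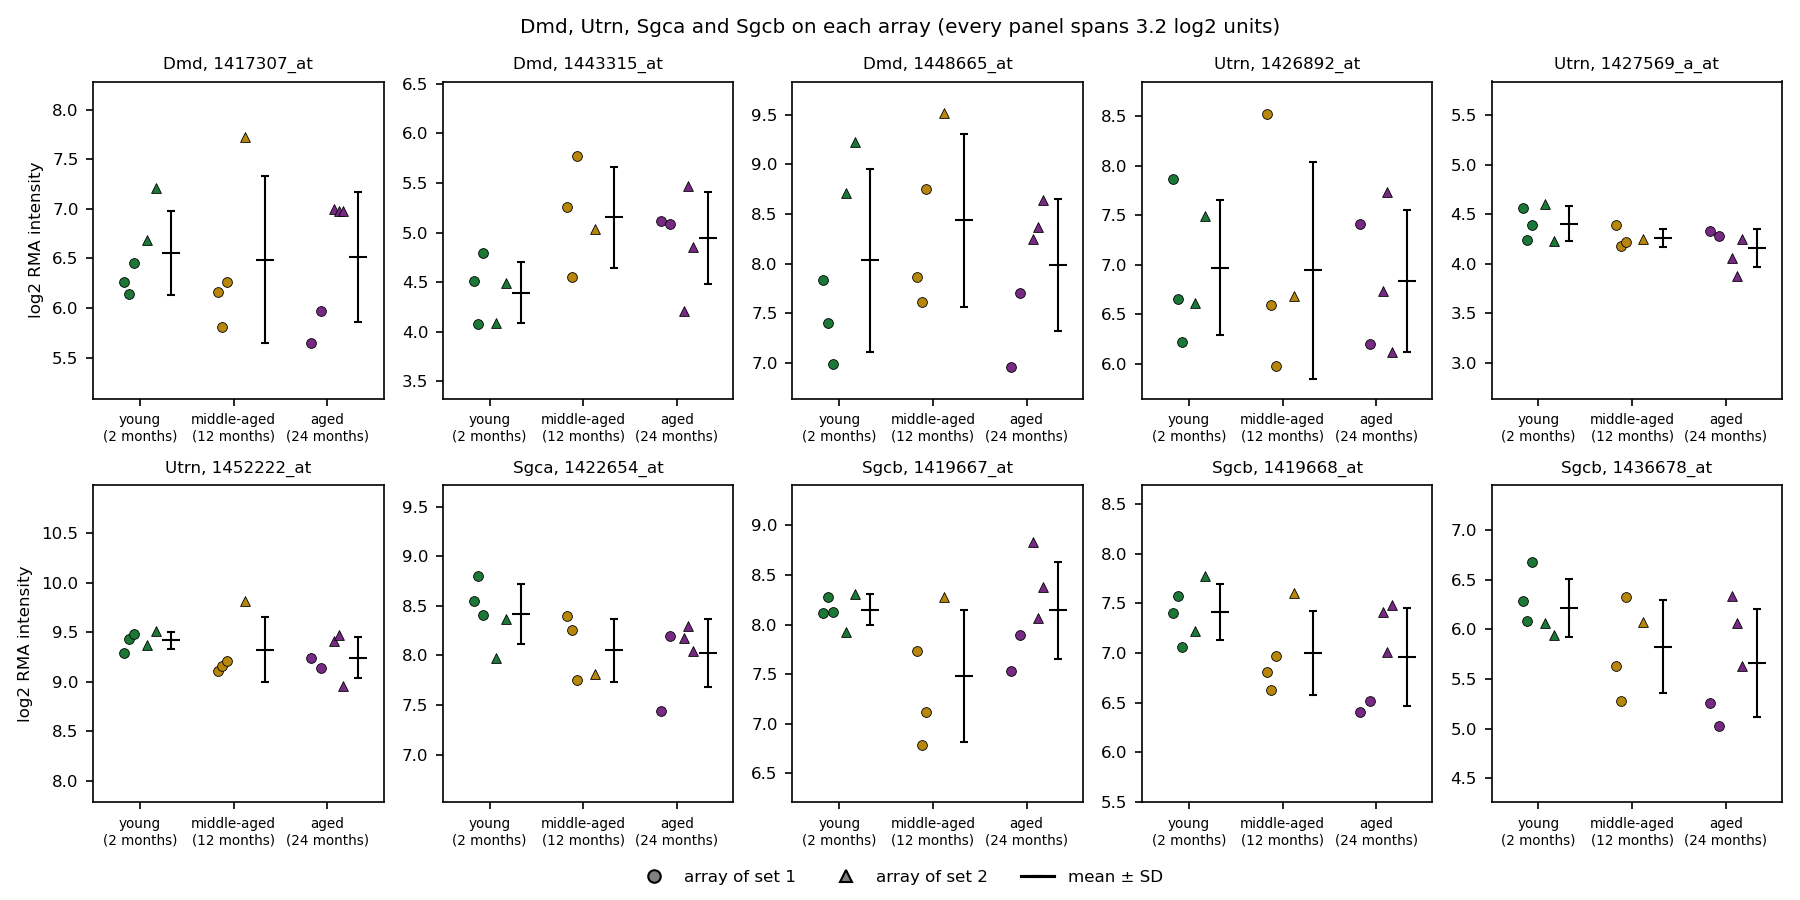
Log2 RMA intensity (vertical axis, 3.2 log2 units in every panel) of the tested Dmd, Utrn, Sgca and Sgcb probe sets on each array, by age; circles are arrays of set 1, triangles arrays of set 2, and the bars give the mean ± SD of each age. The ages overlap in every panel, and on Dmd 1417307_at the triangles (6.69 to 7.72) lie above all circles (5.65 to 6.45). The sets were taken from the values of these same arrays, so probe sets that separate them are to be found by construction.

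Sntb1 and Dtna, whose proteins bind dystrophin inside the cell, were dim. Sntb1, β1-syntrophin, was tested on 1 of its 6 probe sets, 1421455_at, which read 4.29, 4.16, 4.66, 4.30 and 4.18 on young arrays, 3.81, 4.55, 4.26 and 4.54 on middle-aged arrays and 3.91, 4.19, 3.95, 3.96 and 3.67 on aged arrays. Aged 2 stood above the 2 lowest young arrays and the other 4 aged arrays lay below all young ones. The change was -0.38 ± 0.17 (unadjusted p = 0.0346, adjusted p = 0.274), at a level that passed the brightness threshold on 12 of 14 arrays.

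Dtna, α-dystrobrevin, was tested on 3 of its 7 probe sets. In aged against young cells they changed by 0.36 ± 0.26 (1425292_at, range over all arrays 3.90 to 5.60), -0.15 ± 0.13 (1426066_a_at, 3.66 to 4.24) and -0.06 ± 0.19 (1427588_a_at, 3.93 to 4.87), with adjusted p of 0.572, 0.672 and 0.917. Their signs differed and no group stood apart. The 9 untested probe sets of Sntb1 and Dtna lay between 2.40 and 4.36, and 5 of them passed the threshold on no array.

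The genes that act with the complex were read from 4 lists of 66 genes, of which 50 had a tested probe set, each gene taken by its brightest. In aged against young cells 1 of the 50 was called, against 3.75% of 13579 genes. In middle-aged against young cells 0 were called (2.32% of all genes) and in aged against middle-aged cells 0 (0.00%). At an unadjusted p under 0.05 there were 9 of the 50 in aged against young cells (16.3% of all genes), 6 in middle-aged against young (16.1%) and 1 in aged against middle-aged (9.30%). The median log2 change in aged against young cells was 0.0014 for the 50 genes and -0.05 for all genes.

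Among other subunits and bound proteins, 8 of 16 genes were tested and none was called. Nos1, the nitric oxide synthase that syntrophin anchors, had means of 6.41 ± 0.18 in young (n = 5), 6.80 ± 0.36 in middle-aged (n = 4) and 6.59 ± 0.18 in aged cells (n = 5). Sntb2, β2-syntrophin, had 8.03 ± 0.45, 8.34 ± 0.61 and 8.56 ± 0.31. Sgce (ε-sarcoglycan) and Sspn (sarcospan) changed by 0.03 and -0.08 in aged and by -0.15 and -0.05 in middle-aged against young cells. Dysf and Cav3, of the mature muscle membrane, were below the filter. They do not stand for mature muscle transcripts in general, since 12 of 17 tested myofibre markers were called higher in aged against young cells.

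Of the enzymes that build the laminin-binding sugar of dystroglycan, 14 of 18 were tested and none was called in any comparison. The smallest p values belonged to Rxylt1, which adds a xylose to that chain, and Dpm1, which makes its mannose donor. Rxylt1 had means of 7.36 ± 0.24, 7.58 ± 0.47 and 7.83 ± 0.18 in young, middle-aged and aged cells, and Dpm1 had 7.38 ± 0.43, 6.79 ± 0.58 and 7.52 ± 0.74. The list's median change was -0.0028 in aged and -0.12 in middle-aged against young cells.

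Of the outer ligands of dystroglycan, 10 of 14 were tested and Lamc1, the γ1 chain found in most laminins, fell. Its probe set 1423885_at read 7.82, 7.12, 8.09, 7.997 and 7.07 on young arrays, 6.83, 6.91, 6.88 and 6.31 on middle-aged arrays and 6.36, 7.02, 6.79, 6.95 and 6.44 on aged arrays. Every older array lay below every young one. Of all probe sets, 7.69% showed such a separation from young in middle-aged cells and 4.63% in aged cells, in either direction. The aged minus young change was -0.91 ± 0.22 (limma adjusted p = 0.0390), and the middle-aged change was -0.89 ± 0.24 (adjusted p = 0.0725). The call was lost without young 1 (0.103), young 3 (0.114), young 4 (0.105), aged 1 (0.0900), aged 3 (0.0625) or aged 5 (0.0829). It was also lost with the 3′ minus 5′ covariate (0.160), with no dim filter (0.0530), with only the groups compared (0.0698) and within array set 2 (0.651). The dimmer Lamc1 probe set differed by -0.49 ± 0.38 (adjusted p = 0.600). Lama2, the laminin chain of the muscle basal lamina, had means of 11.07 ± 0.27 and 10.95 ± 0.36 in young and aged cells. At an unadjusted p under 0.05, 3 other ligands were higher in aged cells and were not called: Lama4 by 1.34 ± 0.39 (adjusted p = 0.0803), Bgn, the proteoglycan biglycan, by 1.04 ± 0.35 (0.137) and Lamb2 by 0.85 ± 0.27 (0.116). Bgn was also higher in middle-aged cells, by 1.34 ± 0.37 (unadjusted p = 0.00232), and was not called there.

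**Figure D5:**
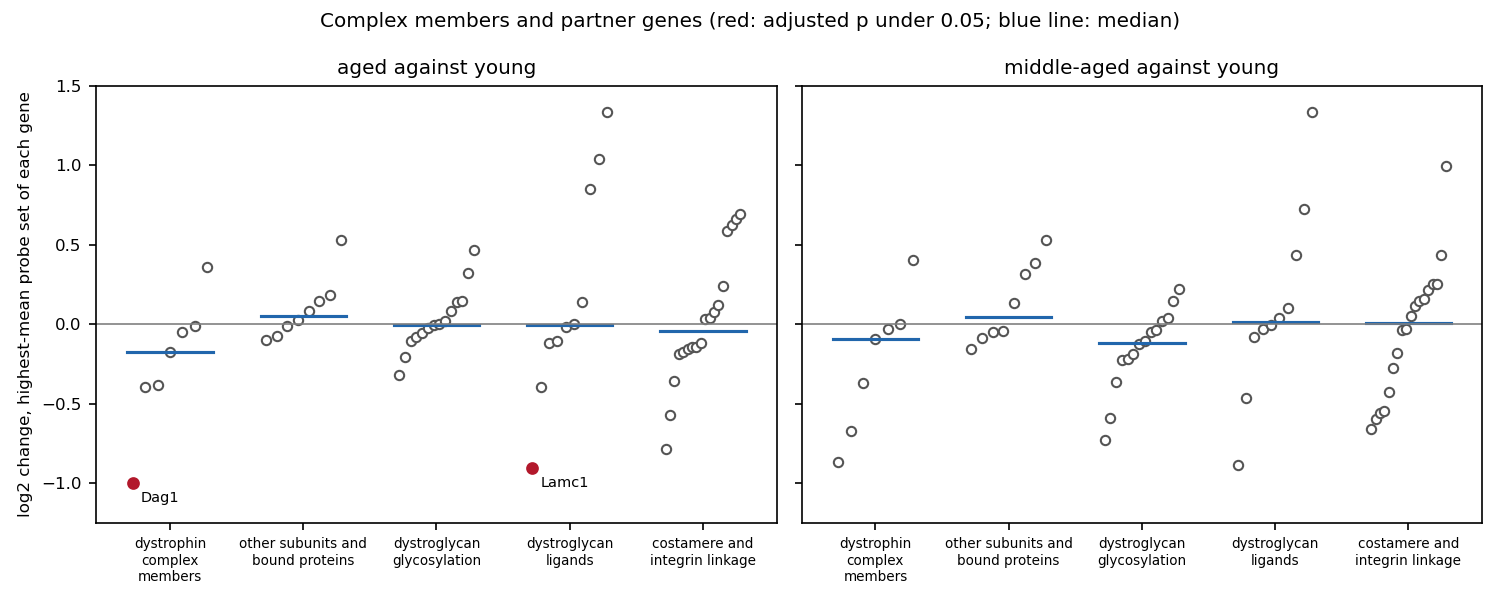
Log2 change of the brightest probe set of each tested gene (points, sorted within each list) in aged (left) and middle-aged (right) against young cells for the members and the 4 partner lists; red points have an adjusted p under 0.05 and the blue lines are list medians. Dag1 (a 2.00-fold fall) and Lamc1 (a log2 change of -0.91) are the red points, and the partner medians lie between -0.12 and 0.05.

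All 18 genes of the costamere list, which join integrins, spectrin and intermediate filaments to the same membrane sites, were tested, and none was called by its brightest probe set. Other probe sets of 2 of them were. Ank3 encodes ankyrin-G, an adaptor that binds dystrophin and dystroglycan. On its probe set 1452872_at it read 8.08, 8.13, 8.17, 8.21 and 7.88 on young arrays, 7.58, 6.66, 6.86 and 7.44 on middle-aged arrays and 6.43, 7.22, 7.37, 7.22 and 6.60 on aged arrays. No older array reached the young range. Over all probe sets, 4.63% had aged and young arrays apart and 7.69% had middle-aged and young arrays apart, in either direction. The change was -1.13 ± 0.21 in aged (2.18-fold lower, limma adjusted p = 0.00922) and -0.96 ± 0.23 in middle-aged cells (adjusted p = 0.0442). In aged cells that call was lost only within array set 2 (-0.94, adjusted p = 0.332) among the settings run.

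Ank3 was also called on 1425202_a_at in aged cells (-1.17 ± 0.28, adjusted p = 0.0292), and leaving out young 1, 2, 3 or 5 or aged 2 or 3 raised the adjusted p to between 0.0590 and 0.0869, and it was also not called within either array set (0.143 in set 1 and 0.286 in set 2). Its brightest probe set, 1451628_a_at, was lower by a change of -0.57 ± 0.20 (adjusted p = 0.153). The middle-aged call on 1452872_at was lost without any 1 of the 5 young arrays or of middle-aged 2, 3 or 4 (adjusted p 0.0628 to 0.155), with no dim filter (0.0571), with a variance trend and robust fit (0.0545) and within array set 2 (1.00). Synm encodes synemin, an intermediate filament protein that binds dystrobrevin and dystrophin, and it was named after its values were seen. On 1457275_at it read 5.00, 3.90, 4.36, 4.59 and 3.59 on young arrays, 5.18, 5.12, 5.71 and 5.00 on middle-aged arrays and 5.96, 5.71, 5.99, 4.84 and 5.51 on aged arrays. Its rise in aged cells was 1.31 ± 0.27 (limma adjusted p = 0.0139), with aged 4 below young 1 as the only overlap, and within array set 2 alone it was not called (1.70 ± 0.36, adjusted p = 0.201).

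With any tested probe set counted, 3 of the 50 partner genes were thus called in aged against young cells (4.48% of all genes by the same count), 1 in middle-aged against young (2.77%) and 0 in aged against middle-aged (0.00%). Parva, α-parvin of the integrin linkage, and Itga7, the laminin-binding integrin chain of muscle that is also on the satellite cell list, were not called. Parva had means of 6.91 ± 0.35 in young and 7.53 ± 0.26 in aged cells (adjusted p = 0.104), and Itga7 8.43 ± 0.69 and 7.65 ± 0.45 (adjusted p = 0.247).

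The genes whose level followed Dag1 most closely over the 14 arrays were Blnk, Ncoa1 and Cxxc5. Likeness was the root mean square difference of log2 levels after each gene was centred on its own mean, computed for 13571 genes outside the members, with a median of 0.605. It was 0.191 for Blnk, an adaptor of B cell receptor signalling, 0.197 for Ncoa1, a nuclear receptor coactivator, and 0.241 for Cxxc5, a zinc finger protein. As a description, their aged minus young changes were -1.02, -0.90 and -0.62, over the same arrays on which Dag1 fell by 1.00.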

How the data were processed

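The 14 arrays (5 young, 4 middle-aged, 5 aged) were labelled with the 3′IVT Express kit, per the labels' protocols. The authors applied RMA, per the submitters' processing notes, and deposited 1 intensity per probe set on a linear scale (array medians 19.0 to 21.2). The version of RMA is not given in the sources used here, nor is a genome build, and its shared normalization can hide a shift of all genes. Log2 was taken with no further scaling, and limma 3.58.1 (R 4.3.3) was fitted with age as the only factor (11 residual degrees of freedom). Symbols came from the platform annotation, and 64 control probe sets, 932 of several genes and 9160 of none were left out. Arrays give no read depth, so precision depends on how many there are. No pair of arrays was identical (highest correlation 0.989).

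The members and lists were chosen with earlier results of these data known. Named were all members, every called gene of each partner list by its brightest probe set or else the 2 with the smallest p, and the 3 genes most like a called member. Sgce, Sspn, Dysf, Cav3, Lama2, Lama4, Lamb2, Bgn, Itga7 and Synm, and single markers other than list counts, were named outside this rule, after their values were seen. Alternatives changed the dim filter, the normalization, the variance model, array weights, covariates and blocks, the probe sets used and the arrays included. The fit was tested on simulated data. Promoters were read with Python 3.11.15 from RefSeq tables. No entry for Sntb1 was matched, and Dtna's promoter is not used here. Of the 4 lists and 66 partner genes, 8 had no probe set named in the annotation used here and 8 were below the filter. Marker lists of other cell types gave these counts of genes called higher in aged against young cells: fibro-adipogenic 2 of 12, pericyte and smooth muscle 1 of 10, endothelial 0 of 8, macrophage and leukocyte 1 of 7 and Schwann 1 of 8, with none lower.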

Additional observations from a re-analysis of the deposited data

Results flagged for a closer look

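Within each age, 78 groups of arrays were examined for 1 array far from the rest, and 6 were found. The groups came from the tested member probe sets, the named partner probe sets and the 3′ minus 5′ difference. Chance alone gives about 1 in 20. Utrn 1452222_at stood at 9.81 on middle-aged 1, with the nearest other middle-aged array at 9.21. Sgca 1422654_at was 7.44 on aged 1, below the next aged array at 8.05. Sntb1 1421455_at was 4.66 on young 3, above the next at 4.30. Nos1 1429887_at was 6.72 on young 4, above the next at 6.40. Rxylt1 1424042_at was 6.87 on middle-aged 1, below the next at 7.79. Lamc1 1423885_at was 6.31 on middle-aged 4, below the next at 6.83. Middle-aged 1, the only middle-aged array of set 2, is the array in 2 of the 6 cases.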

How the results depend on the processing

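The 18 tested member probe sets gave 1506 log2 changes under the alternatives. Of these, 1370 kept their direction and their side of the threshold, 88 turned sign but moved by no more than the standard error of the reported change, 3 calls were lost, 22 were gained and 23 turned sign and moved by more than that error. All 3 lost calls were of Dag1 1426778_at in aged against young cells. The cause of each move was not tested. The array sets were taken from the same values, so counts within a set or with its term are no independent support. Member probe sets called in aged against young cells (1 as reported) numbered 0 with the 3′ minus 5′ covariate, 4 with a term for the array set, 5 within set 1, 0 within set 2, and 0 to 4 with 1 array left out. In middle-aged against young cells (0 as reported) they numbered 1 with median centring, 2 with array weights, 4 with a term for the array set, 4 within set 1 and 0 to 1 with 1 array left out. The F test count (1 as reported) was 0 with the covariate, 4 with the set term, 4 within set 1, 0 within set 2 and 0 to 3 with 1 array left out. Partner genes called in aged against young cells (1 as reported) numbered 0 without a dim filter, 2 without shared-sequence probe sets, 4 with the set term, 3 within set 1, 0 within set 2, 0 with only the groups compared, 3 when any probe set counted (an alternative chosen after seeing the data) and 0 to 2 with 1 array left out. In middle-aged against young cells (0 as reported) they were 1 without shared-sequence probe sets, 2 with array weights, 3 with the covariate, 4 with the set term, 5 within set 1, 1 when any probe set counted and 0 to 1 with 1 array left out. Counts in aged against middle-aged cells and in the late minus the early step were 0 in the fits that left 1 array out. Over the whole table, array weights gave 1461 calls in middle-aged against young cells instead of 444, and set 2 alone gave 12 in aged against young cells instead of 740. Replicate numbers recur across ages, but the same number did not pair arrays: over 13 pairs the correlation of deviations from the age means ran from -0.469 to 0.310, and 0 of 14 arrays correlated best with its own number. With the replicate block, the F test count was 0, partner genes in aged against young cells numbered 0, and Dag1 1426778_at stayed called (adjusted p = 0.0484). With it the Lamc1 call in aged cells (0.0642) and the Ank3 1452872_at call in middle-aged cells (0.0870) were lost. The 23 larger turns of sign, none of them called, were as follows. With the covariate, Dmd 1448665_at in middle-aged against young cells was -0.14 and Dtna 1427588_a_at in aged against young 0.15. Within set 1, aged against middle-aged, Utrn 1427569_a_at was 0.040 and Dtna 1425292_at -0.0079. Within set 2, aged against young, Sgcb 1419667_at was 0.31, Sgcb 1436678_at 0.0086, Dtna 1426066_a_at 0.045 and Dtna 1427588_a_at 0.14. Within set 2, middle-aged against young, Dmd 1417307_at was 0.77, Utrn 1452222_at 0.37, Sgcb 1419667_at 0.16, Sgcb 1419668_at 0.10, Sgcb 1436678_at 0.079, Dtna 1425292_at -0.59 and Dtna 1427588_a_at -0.13. Within set 2, aged against middle-aged, Dag1 1423872_a_at was 0.55, 1426779_x_at 0.38 and 1456131_x_at 0.54, Dmd 1417307_at -0.74, Sgca 1422654_at 0.36, Sntb1 1421455_at 0.049 and Dtna 1427588_a_at 0.27. With 1 array left out, Utrn 1426892_at in aged against middle-aged cells ran from -0.43 to 0.42, the latter without middle-aged replicate 2.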
